A study of Rattus norvegicus with 5 samples.

Results

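Fatty acid synthesis and desaturation was followed through 10 genes, namely Acly, Acss2, Me1, Acaca, Fasn, Elovl6, Scd, Fads1, Fads2 and Srebf1. A gene was measured where the RefSeq accession of a probe mapped to it, and its brightest probe stood for it. This gave 9 of the 10 genes, among 11104 named genes and 18913 features tested in all. For Srebf1 no probe accession mapped to the gene through the gene table used, so it has no value here. All 9 measured probes gave a signal well above background on each of the 5 arrays.

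RNA came from tumours of C6-L cells, a line of rat glioma cells, grown in BALB/c nu/nu nude mice with an age of 6 weeks in the labels. The samples were 3 metastatic lung nodules and 1 γ-irradiated primary tumour, all with a time point of 6 weeks after irradiation, and 1 non-irradiated primary tumour with a time point of 6 weeks after xenograft. The stated comparisons were metastatic nodules against the irradiated primary and the irradiated against the non-irradiated primary, and the nodules were also set against the non-irradiated primary here. Each sample was hybridised to 1 single-colour (Cy3) rat array. The hosts were mice and the probes were designed for rat, so RNA of host cells could reach a probe only as far as it cross-hybridised, which was not measured. All tumours derive from 1 cell line, and no label states that the 3 nodules are from different mice, so p-values reflect only how much these particular samples vary. In whole tissue, fewer cells of a type and less RNA per cell cannot be told apart.

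Fatty acid synthesis builds long carbon chains from acetyl-CoA in the cytosol. Citrate exported from mitochondria, or acetate, supplies the acetyl-CoA, and NADPH supplies the reducing power. Acetyl-CoA carboxylase and fatty acid synthase make palmitate, elongases lengthen it, and desaturases add the double bonds that keep membranes fluid. The SREBP transcription factors, of which Srebf1 and Srebf2 encode the precursors, are known to drive these genes and those of sterol synthesis when sterols are low. C6 is a long-established rat model of glioma, a brain tumour of glial character.

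Between 69.8 and 73.5% of an array's gene spots lay well above background, 0 were saturated, and the small number of arrays limits the precision. Over all probes, 2 nodules correlated at 0.985 to 0.992, nodules with the irradiated primary at 0.975 to 0.981, and nodules with the non-irradiated primary at 0.970 to 0.976. All 5 arrays lay on 1 slide, with the nodules in row 1 and the primaries in row 2, and the effect of the row cannot be told apart from that of the group. Of 19 measured glial genes, 16 were well above background in each nodule and 14 in each primary, while Gfap, Mog and Olig2 were not well above background on any array.

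The promoters of 4 of these genes are shown because they are the start regions of Scd and Fads2, the genes that passed the test below, and of Acss2 and Acly, which supply acetyl-CoA and lay above both primaries in every nodule. Each window runs from 250 bases before to 50 bases after the start of the gene, 5′ to 3′ on the gene's own strand, from RefSeq on build GRCr8. The windows are chr1:253231682-253231981 on the minus strand for Scd, chr1:216171984-216172283 on the minus strand for Fads2, chr3:164464453-164464752 on the plus strand for Acss2 and chr10:85963582-85963881 on the minus strand for Acly. Capitals mark the box of the factor NF-Y, CCAAT, read on either strand.
Scd: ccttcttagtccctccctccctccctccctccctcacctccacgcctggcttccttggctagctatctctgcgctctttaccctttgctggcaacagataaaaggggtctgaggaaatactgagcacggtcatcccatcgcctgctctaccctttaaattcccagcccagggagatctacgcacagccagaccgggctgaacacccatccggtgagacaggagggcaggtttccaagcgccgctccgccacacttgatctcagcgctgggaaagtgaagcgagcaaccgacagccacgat
Fads2: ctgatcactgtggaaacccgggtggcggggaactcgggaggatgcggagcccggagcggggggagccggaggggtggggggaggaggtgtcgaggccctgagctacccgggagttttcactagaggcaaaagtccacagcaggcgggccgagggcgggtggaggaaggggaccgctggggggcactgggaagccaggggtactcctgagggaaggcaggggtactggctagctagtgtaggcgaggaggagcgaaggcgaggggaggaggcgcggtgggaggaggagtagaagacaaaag
Acss2: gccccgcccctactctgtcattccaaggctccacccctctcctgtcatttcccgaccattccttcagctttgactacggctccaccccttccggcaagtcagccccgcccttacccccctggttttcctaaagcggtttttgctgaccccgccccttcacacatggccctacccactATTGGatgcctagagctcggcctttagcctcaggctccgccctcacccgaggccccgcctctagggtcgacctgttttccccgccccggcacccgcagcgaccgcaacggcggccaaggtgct
Acly: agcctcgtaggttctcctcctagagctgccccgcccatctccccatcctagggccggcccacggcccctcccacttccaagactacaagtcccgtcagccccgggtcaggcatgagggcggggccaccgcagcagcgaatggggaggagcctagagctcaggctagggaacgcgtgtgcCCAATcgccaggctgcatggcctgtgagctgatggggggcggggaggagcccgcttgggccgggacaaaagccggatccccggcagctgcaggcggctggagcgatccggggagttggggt

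Windows were found for Scd, Acly, Acss2, Fads1, Fads2 and Me1 and, with 2 starts, Srebf1, which makes 8 windows; Fasn, Acaca and Elovl6 had none matched. Both strands were searched for 4 sets of letters that do not overlap one another. The sterol regulatory element TCACNCCAC, a site that SREBP proteins can bind, was in 0 of the 8 windows, and in 1.12% of all 33469 promoter windows of the same length. CCAAT was in 5 of the 8, those of Acly, Acss2, Fads1 and both starts of the unmeasured Srebf1, against 37.5% of all windows. In Acly it lay at bases -71 to -67 from the start, in Acss2 at -73 to -69 on the opposite strand, and in Fads1 at -121 to -117. GGGCGG, the box of the factor Sp1, was in 7 of the 8 windows, against 33.1% of all. The E-box CACGTG was in 0 of the 8, against 6.42% of all. Among 17 windows of sterol synthesis genes, TCACNCCAC was in 0, CCAAT in 14, GGGCGG in 14 and CACGTG in 1. The lack of TCACNCCAC and the many CCAAT and GGGCGG boxes thus did not set the members apart from those genes. The Scd window held none of the 4, and the Fads2 window held a single GGGCGG at -99 to -94. A match is a string of letters in this window and was not tested as a binding site.

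Levels below are log2 signals relative to the 75th percentile of the same array, so 0 is the level of that percentile, and the level of 1 probe is not set against that of another. Differences are log2 differences between groups, tested by limma over all 18913 features with Benjamini-Hochberg adjustment, with the standard error (SE) of the fit. Each primary was 1 array, so a gene's own spread came from the 3 nodules alone, with 2 residual degrees of freedom. Limma drew that spread towards the one typical of all features at a like signal level, the intensity trend. The SE and p-values rest on this moderated spread. The lone primary was assumed to vary like the nodules. The comparisons with the irradiated and the non-irradiated primary share the 3 nodules.

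Scd was the member that stood highest over both primaries. Against the irradiated primary 1 of the 9 members, Scd, rose in the nodules at an adjusted p under 0.05, where 0.909% of all features rose, and 0 fell, where 2.81% of all features fell. At an unadjusted p under 0.05, limma placed 6 members higher and 0 lower, and 9.96% of all features higher and 12.0% lower. Against the non-irradiated primary 2 members, Scd and Fads2, rose, where 9.72% of all features rose, and 0 fell, where 8.85% of all features fell; 4 were higher and 0 lower at an unadjusted p under 0.05, as were 18.9% and 17.96% of all features. All 9 members had a mean above the irradiated primary and 8 a mean above the non-irradiated primary. The median log2 difference was 0.63 against the irradiated primary, where that of all features was 0.03, and 0.52 against the non-irradiated primary, where that of all features was 0.04. These counts moved with the nodules used. Without nodule 1, 6 members rose against the irradiated and 5 against the non-irradiated primary, where 7.24% and 17.8% of all features rose. Without nodule 2 none of the 9 passed in either comparison, and neither did any other feature. Without nodule 3, 1 member rose in each, where 0.16% and 0.70% of all features rose.

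In 8 of the 9 members every nodule lay above the irradiated primary, which held for 36.2% of all features. Against the non-irradiated primary it held for 6 of the 9, and for 40.1% of all features. In 5 of the 9, Acly, Acss2, Elovl6, Scd and Fads2, every nodule lay above both primaries, against 22.3% of all features. The 4 others were Me1, Acaca, Fasn and Fads1, in which at least 1 nodule lay at or below a primary.

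**Figure D1:**
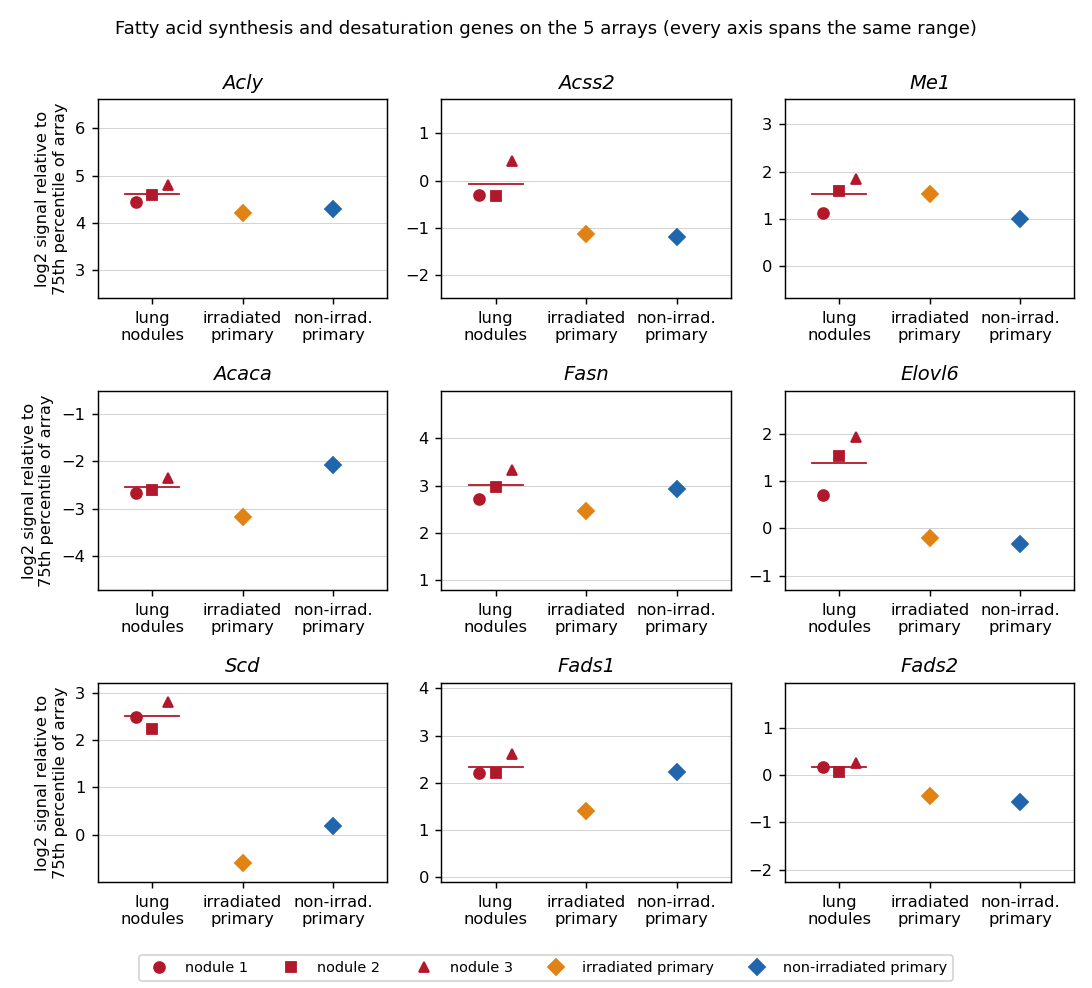
Level of each of the 9 measured genes on the 5 arrays (y axis: log2 signal relative to the array's 75th percentile; every panel spans the same range). Circles, squares and triangles are nodules 1, 2 and 3, diamonds are the primaries (1 array each), and the line is the mean of the nodules. The gap between nodules and primaries is widest in Scd, where the nodules sit at 2.23 to 2.79, the irradiated primary at -0.59 and the non-irradiated primary at 0.18.

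The first steps supply carbon and reducing power. Acly, the ATP citrate lyase that splits citrate into acetyl-CoA and oxaloacetate, had levels of 4.44, 4.60 and 4.81 in nodules 1, 2 and 3, 4.21 in the irradiated primary and 4.30 in the non-irradiated primary. All nodules lay above both primaries, but by little. Its difference was 0.40 against the irradiated primary (SE 0.17, 1.32-fold, adjusted p = 0.273) and 0.31 against the non-irradiated primary (SE 0.17, 1.24-fold, adjusted p = 0.272).

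Acss2, the cytosolic and nuclear synthetase that turns acetate into acetyl-CoA, had levels of -0.30, -0.33 and 0.42 in the nodules, -1.12 in the irradiated primary and -1.18 in the non-irradiated primary. The primaries were almost level with each other and the nodules did not overlap them, while nodule 3 stood 0.73 above the mean of the other nodules. Its difference was 1.05 against the irradiated primary (SE 0.34, 2.06-fold, adjusted p = 0.18) and 1.11 against the non-irradiated primary (SE 0.34, 2.16-fold, adjusted p = 0.0873). Neither difference passed the threshold with all 3 nodules, and both passed without nodule 1, at adjusted p = 0.0423 and adjusted p = 0.0208. In that setting 7.24% and 17.8% of all features rose. Neither passed in the 11 other alternatives run, where the differences were as low as 0.80 and 0.87.

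Me1, the cytosolic malic enzyme that yields NADPH and pyruvate from malate, had levels of 1.14, 1.59 and 1.84 in the nodules, 1.52 in the irradiated primary and 1.00 in the non-irradiated primary. The irradiated primary lay within the range of the nodules, and the non-irradiated primary below it. The difference was 0.00 against the irradiated primary (SE 0.29, adjusted p = 0.998) and 0.52 against the non-irradiated primary (SE 0.29, 1.43-fold, adjusted p = 0.267). A second, dimmer Me1 probe with 2 spots, against 10 for the probe used, gave another pattern: -0.44, -0.40 and -0.04 in the nodules, 0.04 in the irradiated primary and -1.70 in the non-irradiated primary. By that probe the nodules were lower than the irradiated primary by a difference of -0.33 and higher than the non-irradiated primary by 1.41, so the Me1 values depend on the probe.

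Chain building comes next. Acaca, acetyl-CoA carboxylase 1, makes the malonyl-CoA that feeds the growing chain and is the committed step of the pathway. Its levels were -2.68, -2.60 and -2.35 in the nodules, -3.17 in the irradiated primary and -2.08 in the non-irradiated primary, so the nodules lay between the primaries. The difference was 0.63 against the irradiated primary (SE 0.22, 1.54-fold, adjusted p = 0.198) and -0.47 against the non-irradiated primary (SE 0.22, 0.724-fold, adjusted p = 0.199). Acaca was the member with a negative mean difference against the non-irradiated primary.

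Fasn, the multi-enzyme synthase that makes palmitate, had levels of 2.72, 2.96 and 3.33 in the nodules, 2.46 in the irradiated primary and 2.94 in the non-irradiated primary. The nodules lay above the irradiated primary and on both sides of the non-irradiated primary. Its difference was 0.55 against the irradiated primary (SE 0.25, 1.46-fold, adjusted p = 0.293) and 0.07 against the non-irradiated primary (SE 0.25, 1.05-fold, adjusted p = 0.871). Without nodule 3 the value against the non-irradiated primary was -0.09.

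Elovl6, the elongase that lengthens palmitate to stearate, had levels of 0.71, 1.53 and 1.92 in the nodules, -0.21 in the irradiated primary and -0.33 in the non-irradiated primary. Every nodule lay above both primaries, but the nodules themselves spread by 1.21, the widest range among the members. The difference was 1.60 against the irradiated primary (SE 0.48, 3.03-fold, adjusted p = 0.155) and 1.72 against the non-irradiated primary (SE 0.48, 3.28-fold, adjusted p = 0.0705). A second Elovl6 probe gave differences of 1.92 and 1.98. With nodule 1, the lowest, left out, both differences of the probe used passed the threshold, at 1.94 (adjusted p = 0.00163) and 2.05 (adjusted p = 0.000903). In that setting 7.24% and 17.8% of all features rose. Neither difference passed in the 11 other alternatives run, where they were as low as 1.33 and 1.45.

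Scd, stearoyl-CoA desaturase, places the first double bond and makes oleate and palmitoleate. Its levels were 2.48, 2.23 and 2.79 in the nodules, -0.59 in the irradiated primary and 0.18 in the non-irradiated primary. The groups were far apart, since the lowest nodule stood above both primaries by more than the whole range of the nodules, 0.57. The nodules were 8.38, 7.04 and 10.4 times the irradiated primary in nodules 1, 2 and 3, and 4.94, 4.14 and 6.13 times the non-irradiated primary. The difference was 3.09 against the irradiated primary (SE 0.24, 8.50-fold, adjusted p = 0.0128) and 2.32 against the non-irradiated primary (SE 0.24, 5.01-fold, adjusted p = 0.0131).

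By size of the difference Scd ranked 35 of 18913 features against the irradiated primary and 227 against the non-irradiated primary. The pair of Scd spots on an array differed by 0.05 to 0.19 on the log2 scale, less than the differences between groups. Without nodule 2 the Scd difference was as large, 3.22 and 2.46, but its adjusted p was 0.0541 and 0.0583, with 2 nodules left in the fit. Scd2, a related desaturase named here after its values were seen, had levels of 3.97, 4.29 and 4.66 in the nodules, 3.45 in the irradiated primary and 4.11 in the non-irradiated primary. Its differences of 0.85 (adjusted p = 0.179) and 0.19 (adjusted p = 0.654) did not pass the test. Any sequence shared by the Scd and Scd2 transcripts could let either bind both probes, which was not tested here.

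Fads1 and Fads2 encode the desaturases that act on polyunsaturated fatty acids, such as those of the arachidonic acid series, and lie beside each other in the genome. Fads1 had levels of 2.21, 2.21 and 2.61 in the nodules, 1.40 in the irradiated primary and 2.23 in the non-irradiated primary, so the irradiated primary was the sample that stood apart. Its difference was 0.94 against the irradiated primary (SE 0.20, 1.92-fold, adjusted p = 0.0885) and 0.12 against the non-irradiated primary (SE 0.20, 1.09-fold, adjusted p = 0.717); without nodule 3 the last value was -0.02. Fads2 had levels of 0.17, 0.07 and 0.26 in the nodules, -0.44 in the irradiated primary and -0.57 in the non-irradiated primary. Its nodules were the tightest of the 9 members, with a range of 0.19, and lay above both primaries. The pair of Fads2 spots differed by 0.26 on nodule 3 and 0.27 on the non-irradiated primary, more than this range. On the irradiated primary and nodules 1 and 2 the pair differed by 0.08, 0.11 and 0.18. The Fads2 difference was 0.61 against the irradiated primary (SE 0.15, 1.53-fold, adjusted p = 0.104) and 0.74 against the non-irradiated primary (SE 0.15, 1.67-fold, adjusted p = 0.0339). The call against the non-irradiated primary was lost without nodule 2 (adjusted p = 0.107), without nodule 3 (adjusted p = 0.101), with scaling by the array median (adjusted p = 0.0686) and without an intensity trend (adjusted p = 0.0577).

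**Figure D2:**
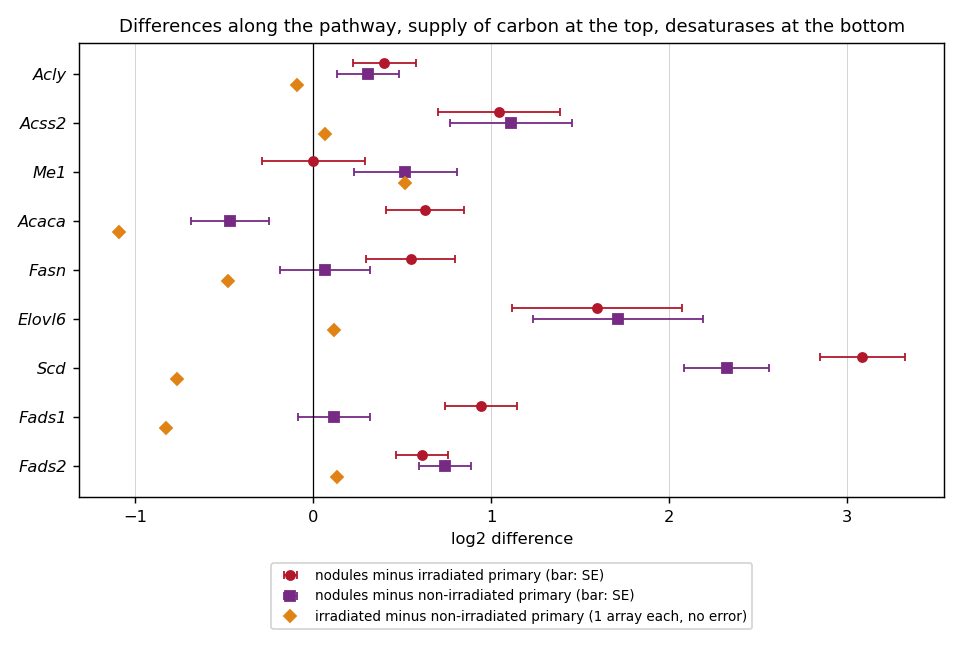
Log2 differences (x axis) of the 9 measured genes, in pathway order from the top. Circles are nodules minus the irradiated primary and squares are nodules minus the non-irradiated primary, both with the SE of the limma fit; diamonds are the irradiated minus the non-irradiated primary, 1 array each and without error. Scd lies farthest to the right in both nodule comparisons, at 3.09 and 2.32, and Acaca farthest to the left between the primaries, at -1.09.

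Between the primaries the members went both ways, 5 of the 9 lower and 4 higher in the irradiated primary. The median difference was -0.09 over the members (irradiated minus non-irradiated) and 0.02 over the 18442 features well above background on either array. There is no replicate for this comparison and no test. Acaca was the 1 member that differed by 2-fold or more: the irradiated primary stood at -3.17 and the non-irradiated primary at -2.08, a difference of -1.09 or 0.469-fold. Of all features 7.13% were at least 2-fold lower and 9.3% at least 2-fold higher in the irradiated primary, and 0 of the 9 members were that much higher. Fads1 (-0.83, 0.564-fold), Scd (-0.76, 0.589-fold) and Fasn (-0.48) were also lower in the irradiated primary. Acss2 (0.07), Elovl6 (0.12), Fads2 (0.13) and Acly (-0.09) differed by little, and Me1 was higher by 0.52. For Acaca, Fasn and Fads1 the 2 primaries thus lay farther apart than the nodules and the non-irradiated primary, whereas for Acss2, Elovl6 and Fads2 the primaries lay close together, below every nodule.

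Among the nodules, nodule 3 was the highest in all 9 members, a place it held in 26.1% of all features. It was 0.44 above the mean of nodules 1 and 2 in the median member, and -0.05 in the median feature. The excess was 0.80 in Elovl6, 0.73 in Acss2, 0.48 in Fasn, 0.48 in Me1, 0.44 in Scd, 0.40 in Fads1, 0.29 in Acaca, 0.29 in Acly and 0.14 in Fads2. Nodule 1 was the lowest of the nodules in 5 of the 9 members, and in 32.2% of all features. The members varied more between nodules than most features did, with a median SD of 0.283, against 0.162 over all features.

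Scaling by the array median moved the nodule 3 difference of the median feature to 0.09, and nodule 3 was then highest in 46.2% of all features and still in all 9 members. The count was 9 under every other setting tried as well. Sterol synthesis genes, which the SREBP proteins also control, shared this order: nodule 3 was highest in 21 of 23, with a median excess of 0.64. In the list of citrate, acetyl-CoA and NADPH supply, nodule 3 was highest in 13 of 18 genes (72.2%), with a median excess of 0.12. In the 5 other lipid lists it was highest in 25.9 to 40.0% of the genes, with median excesses between -0.07 and 0.15. This order was noticed in these data and is given as a description.

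**Figure D3:**
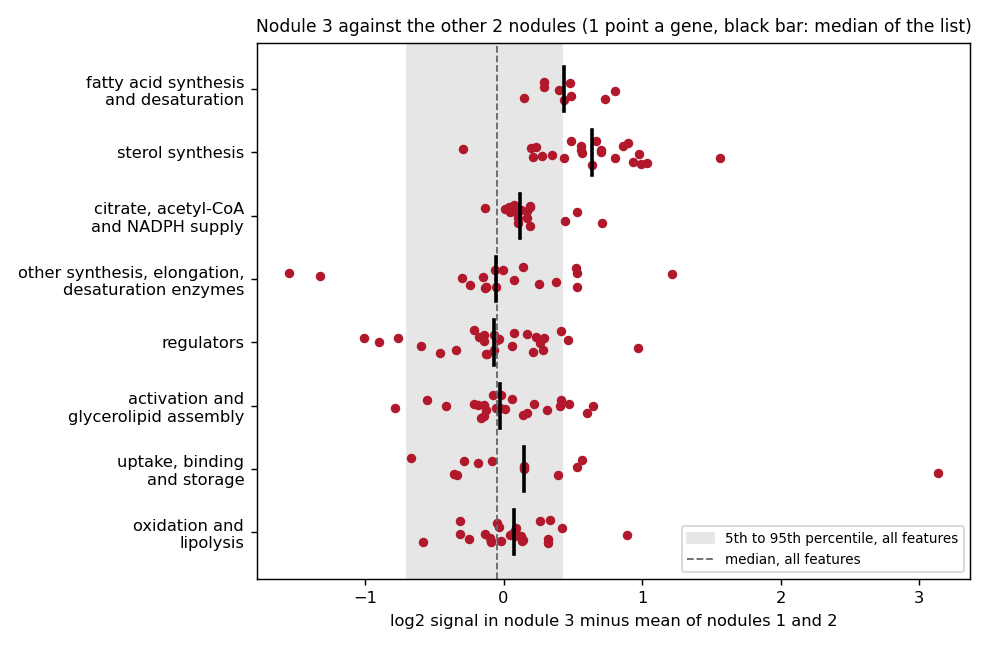
Log2 signal in nodule 3 minus the mean of nodules 1 and 2 (x axis), 1 point a gene, for the fatty acid genes and 7 wider lipid lists (rows). Black bars are list medians, the grey band runs from the 5th to the 95th percentile of all features (-0.69 to 0.42) and the dashed line is their median. All 9 fatty acid genes lie to the right of 0, with a median of 0.44, and 21 of 23 sterol genes were highest in nodule 3.

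Other tissues in the samples could carry these genes, so their markers were set beside the values. Sebaceous gland, fat, liver and the alveolar type 2 cells that make surfactant lipids are known to be rich in fatty acid synthesis. Of 12 measured adipocyte markers, 2, 4 and 6 were well above background in nodules 1, 2 and 3, 3 in the irradiated primary and 1 in the non-irradiated primary; Adipoq, Lep, Retn, Pck1, Aqp7 and Cidea were not well above background on any array. Their summed signal, on the scaled linear scale, was 0.141, 0.172 and 0.437 in the nodules, 0.166 in the irradiated primary and 0.0956 in the non-irradiated primary, highest in nodule 3, as the fatty acid genes were, with Fabp4 making 52.0% of it there. The median log2 level was -7.29, -6.88 and -5.87 in the nodules, -7.41 in the irradiated primary and -7.74 in the non-irradiated primary. Its part in the result was not tested.

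Of 10 alveolar type 2 markers, 9, 9 and 5 were well above background in the nodules and 4 in each primary. Their summed signal was 59.4, 30.1 and 16.4 in the nodules, 11.3 in the irradiated primary and 30.2 in the non-irradiated primary, but Etv5 alone, which is not specific to lung, made 94.5 to 97.9% of it in nodule 3 and the primaries. The median log2 level of the 10 markers was 0.09, -2.37 and -7.15 in the nodules, -6.35 in the irradiated primary and -6.68 in the non-irradiated primary. Nodule 3, the highest in the fatty acid genes, was thus the lowest nodule here. The medians of nodule 3 and the primaries lay below the lowest level counted as well above background on those arrays. That level was -6.77 in nodule 3, -6.03 in the irradiated and -6.12 in the non-irradiated primary, so their order is not determined. Sftpb, Sftpa1, Slc34a2 and Cldn18 were not well above background in nodule 3 or in either primary. By their median, alveolar type 2 markers were thus higher in nodules 1 and 2 than in nodule 3 or the primaries. Not every marker followed this order. Sftpc stood at -1.04, -3.65 and -3.62 in the nodules, -2.88 in the irradiated and -1.89 in the non-irradiated primary. Lpcat1 was highest in the irradiated primary, at -2.08. The part of these markers in the nodule differences was not tested. Of 10 skin and sebaceous gland markers, 6 were well above background in each nodule, 5 in the irradiated and 4 in the non-irradiated primary, with summed signals of 1.60, 1.10 and 1.29 in the nodules, 9.61 in the irradiated primary and 1.26 in the non-irradiated primary. Krt79 alone made 96.6% of the sum in the irradiated primary, and the median log2 level of the list was -4.89, -5.02 and -5.06 in the nodules, -5.51 in the irradiated primary and -5.90 in the non-irradiated primary. Of 8 hepatocyte markers, 1, 6 and 4 were well above background in the nodules, 2 in the irradiated and 4 in the non-irradiated primary, with sums of 0.0698, 0.984 and 0.169 in the nodules, 0.1 in the irradiated primary and 0.256 in the non-irradiated primary.

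Muscle markers also differed between the samples. Of 17 skeletal muscle markers, 11, 13 and 14 were well above background in the nodules and 16 in each primary, and their summed signal was 6.27, 7.07 and 8.02 in the nodules, 172 in the irradiated primary and 39.9 in the non-irradiated primary. Of 10 heart muscle markers, 7, 7 and 9 were well above background in the nodules, 7 in the irradiated and 5 in the non-irradiated primary, with sums of 6.89, 6.26 and 54.6 in the nodules, 9.81 in the irradiated primary and 8.02 in the non-irradiated primary. Nodule 3 was therefore high in heart muscle markers as well as in the fatty acid genes, and the part of muscle in the values was not tested. Blood and vessel markers were high in the nodules: 6 measured erythroid markers summed to 556, 473 and 310 in the nodules, 105 in the irradiated primary and 39.1 in the non-irradiated primary, and 7 endothelial markers to 4.03, 2.13 and 1.31 in the nodules, 1.00 in the irradiated primary and 0.789 in the non-irradiated primary. Macrophage markers, 14 in number, summed to 61.7, 58.0 and 51.6 in the nodules, 62.9 in the irradiated primary and 28.3 in the non-irradiated primary. C1qb alone made 39.3 to 46.7% of these macrophage sums. Of 13 tested macrophage markers, every nodule lay above both primaries in 3 and below both in 3, Cd68, Cd163 and Mrc1. Of all 18913 features 4218 lay above both and 3640 below both. By the summed signals nodule 3 was the lowest nodule in the erythroid, endothelial and macrophage lists. By the median log2 level it was so in the erythroid and endothelial lists, and the highest nodule in the macrophage list. Their part in the nodule differences was not tested.

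Wider lipid lists were counted in the same fit, with the lists chosen by function. The shares of all features given above, 0.909% higher and 2.81% lower against the irradiated primary and 9.72% higher and 8.85% lower against the non-irradiated primary, are the background for these counts. Without nodule 2 no feature of the 18993 then tested passed in either comparison, so each call below is lost without it. Without nodule 3 the calls against the non-irradiated primary in the 6 wider lists other than sterol synthesis were 0 as well, apart from 1 gene of the supply list. Without nodule 1 that comparison had 9 higher and 1 lower in the supply list, and 6 and 4 in activation and assembly. It had 3 and 3 in uptake, 1 and 3 among the regulators and 7 and 5 in oxidation. The other enzymes had 3 and 3. Of all features 17.8% were then called higher and 16.2% lower, and 7.24% and 9.70% against the irradiated primary. The same 6 lists then had, against the irradiated primary, at most 2 genes higher and 3 lower. Of the list for citrate, acetyl-CoA and NADPH supply, 18 of 21 genes were tested. Against the irradiated primary 0 passed (1 higher and 5 lower at an unadjusted p under 0.05 by limma) and the median difference was 0.00. Against the non-irradiated primary 5 rose, 0 fell (1 lower at an unadjusted p under 0.05) and the median difference was 0.42. Idh2, a mitochondrial isocitrate dehydrogenase that makes NADPH, rose by 1.60 (SE 0.13, adjusted p = 0.0100), and Cs, citrate synthase, rose 2.15-fold (adjusted p = 0.0128).

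The mitochondrial transhydrogenase Nnt rose by 1.14 and the mitochondrial malic enzyme Me2 by 1.07 over the non-irradiated primary. Pdk4, a kinase that turns down pyruvate dehydrogenase, rose too, and was not well above background in the non-irradiated primary, so the nodules were at least 1.65-fold higher. The irradiated primary was also at least 2-fold above the non-irradiated primary in 5 of these 18 genes, the same Cs, Idh2, Me2, Nnt and Pdk4, with Nnt higher by 1.62 and Pdk4 by at least 3.64-fold. Between the primaries these 5 thus went the same way as the skeletal muscle sums given above, while in the nodules they were above the non-irradiated primary and the muscle sums below it; the part of muscle was not tested.

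Of the other enzymes of synthesis, elongation and desaturation, 19 of 25 genes were tested. Against the irradiated primary 0 passed (2 higher and 1 lower at an unadjusted p under 0.05) and the median was 0.26. Over the non-irradiated primary 2 rose and 2 fell of 19 (10.5% each), near the shares of all features, with a median of 0.22. Mid1ip1, an activator of acetyl-CoA carboxylase, rose by 0.74 and the thioesterase Acot7 by 0.69. Elovl4, an elongase of very long chains, fell by 1.77 (SE 0.29, adjusted p = 0.0246), and the thioesterase Acot2 fell by 0.91. Elovl4 was also -1.51 in the irradiated against the non-irradiated primary. Mid1ip1, Acot7 and Acot2 were 0.69, 0.50 and -0.32 there.

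Of the regulators of SREBP-1 and lipogenesis, 27 of 28 genes were tested. Against the irradiated primary 0 passed (2 higher and 2 lower at an unadjusted p under 0.05), and against the non-irradiated primary 0 rose (1 at an unadjusted p under 0.05) and 1 fell. The gene that fell was Mylip, a ubiquitin ligase that degrades the LDL receptor, by 2.44 (SE 0.51, adjusted p = 0.0395). Its level in the irradiated primary, -3.78, lay within the nodule range of -4.83 to -3.58. Between the primaries Mylip was -2.06, so the non-irradiated primary, at -1.72, was the sample that stood apart. Insig1, a sterol-responsive protein that holds SREBP precursors in the endoplasmic reticulum, had levels of 1.56, 1.48 and 1.99 in the nodules, 0.41 in the irradiated primary and 1.76 in the non-irradiated primary. Its differences of 1.26 (adjusted p = 0.0633) and -0.08 did not pass, and the irradiated primary was lower than the non-irradiated by -1.34. Between the primaries Pparg, a nuclear receptor that drives fat storage, was -1.88 and Insig2 was 1.13.

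In fatty acid activation and glycerolipid assembly, 24 of 25 genes were tested. Against the irradiated primary 0 passed (1 higher and 2 lower at an unadjusted p under 0.05), and against the non-irradiated primary 2 rose and 1 fell of 24 (8.33% and 4.17%), below the shares of all features. The acyl-CoA synthetase Acsl5 rose by 1.20 (SE 0.12, adjusted p = 0.0131), Pcyt2 of phosphatidylethanolamine synthesis rose by 1.14, and Gpam, a mitochondrial glycerol phosphate acyltransferase, fell by 0.86. Between the primaries Acsl5 was 0.91, Pcyt2 0.39 and Gpam -0.89 (irradiated minus non-irradiated). For uptake, binding and storage, 13 of 16 genes were tested. Of these 0 passed against the irradiated primary (1 higher and 2 lower at an unadjusted p under 0.05) and 1 rose against the non-irradiated primary, the transport protein Slc27a3, at least 3.70-fold, since it was not well above background there. The irradiated primary was likewise at least 3.70-fold above the non-irradiated primary in Slc27a3.

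Among genes of fatty acid oxidation and lipolysis, 25 of 27 were tested. Against the irradiated primary 1 rose, the triglyceride lipase Pnpla2, by 1.02 (SE 0.16, adjusted p = 0.0491), and 0 fell (2 lower at an unadjusted p under 0.05). That call was also lost with quantile normalization, without a filter on dim probes, with the deposited matrix, without the intensity trend and without nodule 3. Set against the non-irradiated primary, 4 rose and 5 fell, with a median of 0.05. Etfdh, Cpt1a, Acadm and Acadl rose by 1.00, 0.90, 0.77 and 0.62. Cpt1a is the carnitine transferase that lets fatty acids into mitochondria. Mlycd, which breaks down malonyl-CoA, fell by 1.21, Cpt1b by 0.96, Eci1 by 0.91 and Etfb by 0.80, and Acaa1a fell as well. Between the primaries, irradiated minus non-irradiated, Etfdh, Cpt1a, Acadm and Acadl were 0.97, 0.36, 0.57 and 1.12. Mlycd, Cpt1b, Eci1, Etfb and Acaa1a were -1.34, -0.96, -0.93, 0.03 and -1.02 there. In Etfdh, Cpt1b and Eci1 the nodules and the irradiated primary differed by 0.03 or less. This list thus moved both ways against the non-irradiated primary.

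Sterol synthesis, which draws on the same acetyl-CoA, was set beside the fatty acid genes as 23 tested genes of 23. Of these 4 rose against the irradiated primary, Hmgcs1, Idi1, Sqle and Srebf2, by 1.61, 1.54, 1.47 and 1.18, and 0 fell (0 lower at an unadjusted p under 0.05), with a median of 1.15. Against the non-irradiated primary 5 rose, Ebp, Sqle, Fdft1, Srebf2 and Hmgcs1, by 1.41, 1.33, 1.13, 0.89 and 0.89, and 0 fell, with a median of 0.79. The count against the irradiated primary was 0 with scaling by the array median, with quantile normalization, without the intensity trend, without nodule 2 and without nodule 3, and 19 without nodule 1. The count against the non-irradiated primary was 2 with scaling by the array median, 1 without the intensity trend, 0 without nodule 2 or nodule 3 and 15 without nodule 1. Between the primaries 18 of the 23 were lower in the irradiated primary, with a median of -0.63, where 8953 of 18442 features were lower. Of the 23, 5 were at least 2-fold lower, and 1, Ebp, was at least 2-fold higher (1.07). Of all features 7.13% were that much lower and 9.3% that much higher.

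**Figure D4:**
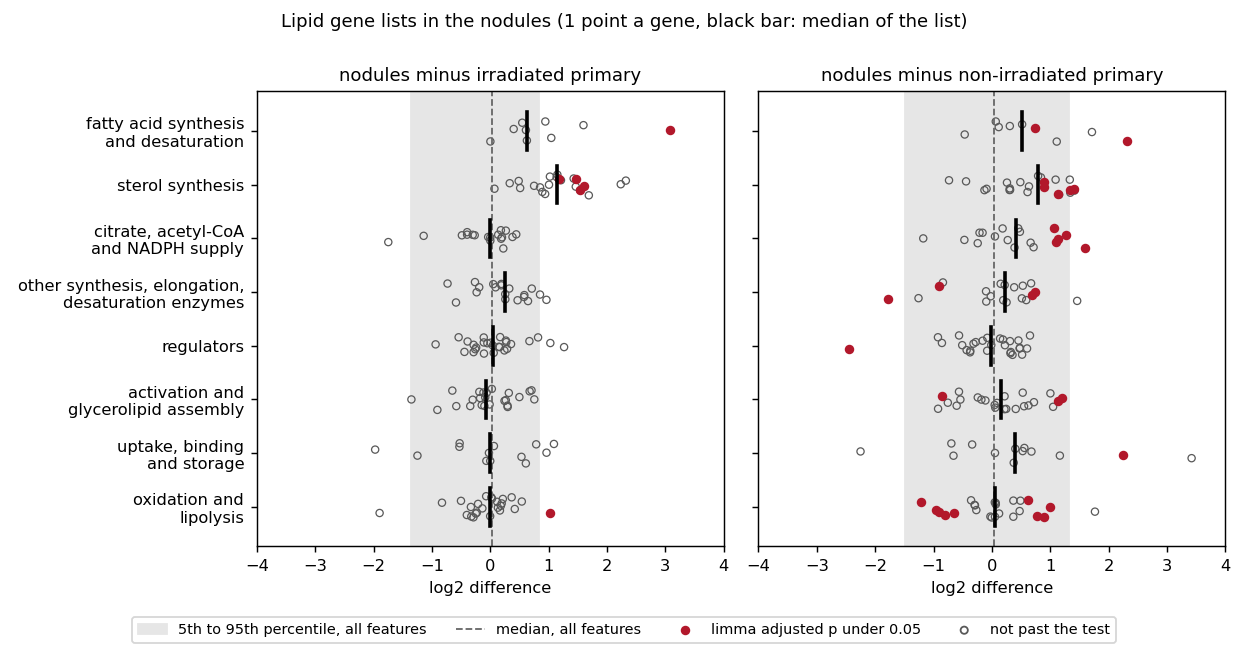
Log2 differences (x axis) of the nodules against the irradiated primary (left) and the non-irradiated primary (right), 1 point a gene, for the fatty acid genes and 7 wider lipid lists (rows). Filled points passed an adjusted p under 0.05 by limma, black bars are list medians, and the grey band is the 5th to 95th percentile of all features. Scd, at 3.09, is the rightmost filled point on the left, and sterol synthesis has the highest list median on that side, 1.15.

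The genes with a 5-array profile nearest to that of Scd were found by the root mean square difference of log2 levels after each profile was centred on its own mean, over 11103 named genes. Of the 5 nearest, Epha4, an ephrin receptor, and Prss12 lay in both primaries below the lowest level counted as well above background there, -6.03 in the irradiated and -6.12 in the non-irradiated primary. Their levels there are upper bounds, so their distance and place are not determined. The 3 others were the transporter Abcb9 at 0.404, the protease Fap at 0.415 and Nkd1, an inhibitor of Wnt signalling, at 0.425, and these were also the 3 nearest among the 10032 genes well above background on all 5 arrays, a restriction chosen after the data were seen. Abcb9 had levels of 0.52, 0.55 and 0.84 in the nodules, -1.47 in the irradiated primary and -1.21 in the non-irradiated primary. Under that restriction Elovl6 came nearest to Scd among the fatty acid genes, at 0.689 and rank 35, followed by Acss2 at 0.849 and rank 111. These are likenesses over 5 arrays and carry no test.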

How the data were processed

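The 5 arrays, 1 per sample, were grouped by the labels. Intensity was used as deposited, 1 processed signal per spot, background-subtracted and detrended per the file headers; the submitters' processing notes name Agilent Feature Extraction 11.0. Other values used as deposited were 0 or 1 flags for outlier spots, saturation and signal well above background, per the file headers. The authors also deposited a matrix of log2 values for 18502 probes, whose making is not stated in the sources used here. Its column medians were 9.74, and its sorted columns differed by at most 0.00075, as columns do after quantile normalization. It served as an alternative, but not as a check separate from the quantile normalization tried here.

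Outlier spots were left out, log2 signals were averaged per probe, and each array's 75th percentile was subtracted. RefSeq accessions named 18354 of 30363 probes. A probe counted as well above background where more than a share of 0.5 of its usable spots did, and features had to be so on all arrays of at least 1 group. For a gene not well above background in 1 group, folds are lower bounds against the higher of its own level and the lowest level counted as well above background. R 4.3.3 and limma 3.58.1 fitted 3 group means with an intensity trend, and the script was tested on simulated data. Named genes were all 10 members, up to 4 called genes each way per list and comparison, and the 5 profiles nearest to Scd. Up to 2 each way between the primaries were named in some lists only. Among those left out were Vldlr (at least 8.81-fold higher in the irradiated primary), Mgll (1.60), Hsd17b7 (-1.76) and Fabp5 (-1.73). Me2, Acaa1a and, against the non-irradiated primary, Hmgcs1, each the fifth called gene of its list, and Insig1 were named after their values were seen. The alternatives changed scaling, background correction (normexp with an offset of 50 on median spot signals, since mean signals were not used here), filter, probe rule, trend, values and nodules. The members and lists were chosen with earlier results of these data known.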

Additional observations from a re-analysis of the deposited data

How the results depend on the processing

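Across the 12 alternatives run for each gene and comparison, the Scd difference lay between 2.94 and 3.22 against the irradiated primary (adjusted p 0.000678 to 0.0541) and between 2.18 and 2.46 against the non-irradiated primary (adjusted p 0.00118 to 0.0583), and it missed the threshold only without nodule 2. The number of members past the threshold was 0 to 6 against the irradiated primary and 0 to 5 against the non-irradiated primary when a nodule was left out. Without nodule 2 limma called 0 members in either comparison. There 5 and 4 members were higher at an unadjusted p under 0.05, as were 5.23% and 13.5% of all features. Against the non-irradiated primary 1 member passed with scaling by the array median and 1 without an intensity trend. The number at least 2-fold apart between the primaries was 0 with normexp, 2 with the mean of all probes of a gene and 3 at 1.5-fold. The shares of all features under these settings are not given here. The Me1 difference against the irradiated primary changed sign to -0.0322 with quantile normalization, -0.17 with the mean of all probes and -0.0320 with the deposited matrix, and lay between -0.158 and 0.196 when a nodule was left out. Without nodule 3, Fasn and Fads1 against the non-irradiated primary were -0.0940 and -0.0161, while their highest values without a nodule were 0.21 and 0.19. Over all features, 704 passed against the irradiated primary and 3512 against the non-irradiated primary; these counts were 3232 and 6472 without nodule 1, 0 and 0 without nodule 2, 191 and 296 without nodule 3, 438 and 2598 with scaling by the array median, and 399 and 2487 without an intensity trend. The causes were not tested. The count with every nodule above both primaries was 5, against 22.3% of all features, and 7 without nodule 1. With 2 nodules left the condition is easier to meet for any feature. The share of all features without nodule 1 is not given here, so the 7 cannot be read as a gain. No paired analysis was possible because each primary is 1 array, and no block for the slide could be fitted because there is 1 slide and its rows match the groups.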
